A study of Mus musculus with 4 samples.

Results

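Genomic imprinting silences 1 parental copy of a gene, so that it is transcribed mainly from the mother's or mainly from the father's chromosome. The account given here covers 7 imprinted mouse genes: Dlk1, Gtl2 (now named Meg3), Dio3, H19, Peg3, Peg10 and Grb10. They were taken by gene symbol from the authors' deposited table of 398 probe sets, where each has 1 probe set, and were joined by probe set to the value table of 35557 transcript clusters. All 7 were found there. The authors' table lists probe sets that differ at least 2-fold between the genotypes, so the genotype differences of these genes are a description of what chose them and carry no test.

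The study measured mouse aortic endothelial cells of strain C57BL/6J on Affymetrix Mouse Gene arrays, 2 arrays of hcatTg cells and 2 arrays of wild type cells. hcatTg cells carry a transgene for human catalase, the enzyme that breaks down hydrogen peroxide. The labels do not name the promoter that drives it. All cells, at 80% confluence, spent 12 h without serum in DMEM and a further 12 h with 10% FBS. The labels call the RNA samples independent but name no animals or cultures. A p-value thus says nothing beyond these RNA samples, and the spread between them may be technical. The authors' table sets the first hcatTg array against the first wild type array and the second against the second, and its header calls these comparisons a first and a second time.

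In the mouse, Dlk1, Gtl2 and Dio3 lie in 1 imprinted region of chromosome 12. Its paternal copy gives the protein-coding genes Dlk1, Rtl1 and Dio3, and its maternal copy gives the noncoding RNAs Gtl2, Rian and Mirg together with a large set of microRNAs. In RefSeq the order is Dlk1, Meg3, Rtl1, Rian, Mirg, Dio3, and 58 microRNA hairpins lie from Meg3 to Dio3. H19 and Peg3 lie on chromosome 7, Peg10 on chromosome 6 and Grb10 on chromosome 11. H19, Gtl2 and Grb10 are known as maternally expressed in most tissues, Grb10 being expressed from the paternal copy in neurons, and Dlk1, Dio3, Peg3 and Peg10 as paternally expressed. The arrays measure the RNA of both copies together, so allelic origin is background here and was not measured.

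The promoters of the 3 genes of the chromosome 12 region and of Peg3 are shown because Dlk1 and Gtl2 were higher in hcatTg cells, while Dio3, from the same region, and Peg3 were lower. Each window runs from 250 bases before to 50 bases after a RefSeq start, 5′ to 3′, and capitals mark the letters TGACGTCA, the palindromic cAMP response element, and TATAAA on either strand.
Dlk1, GRCm38.p6, chr12:109452573-109452872, plus strand: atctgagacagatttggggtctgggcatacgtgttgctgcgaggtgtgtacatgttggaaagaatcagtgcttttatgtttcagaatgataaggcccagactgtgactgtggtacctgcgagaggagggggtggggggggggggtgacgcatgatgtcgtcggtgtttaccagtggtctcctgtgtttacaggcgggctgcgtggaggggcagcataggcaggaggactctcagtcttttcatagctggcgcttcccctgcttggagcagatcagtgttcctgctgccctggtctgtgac
Meg3, GRCm38.p6, chr12:109540746-109541045, plus strand: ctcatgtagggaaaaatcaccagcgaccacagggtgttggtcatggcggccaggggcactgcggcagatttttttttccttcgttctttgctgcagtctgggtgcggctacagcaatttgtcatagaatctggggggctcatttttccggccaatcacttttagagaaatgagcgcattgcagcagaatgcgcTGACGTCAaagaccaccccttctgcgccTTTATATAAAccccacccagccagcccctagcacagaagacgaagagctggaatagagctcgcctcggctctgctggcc
Dio3, GRCm38.p6, chr12:110278980-110279279, plus strand: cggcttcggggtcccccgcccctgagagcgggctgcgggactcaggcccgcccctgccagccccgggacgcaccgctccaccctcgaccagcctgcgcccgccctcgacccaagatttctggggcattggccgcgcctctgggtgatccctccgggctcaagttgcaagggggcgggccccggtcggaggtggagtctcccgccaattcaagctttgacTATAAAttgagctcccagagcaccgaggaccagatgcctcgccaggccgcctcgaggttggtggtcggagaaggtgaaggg
Peg3, GRCm38.p6, chr7:6730370-6730669, minus strand: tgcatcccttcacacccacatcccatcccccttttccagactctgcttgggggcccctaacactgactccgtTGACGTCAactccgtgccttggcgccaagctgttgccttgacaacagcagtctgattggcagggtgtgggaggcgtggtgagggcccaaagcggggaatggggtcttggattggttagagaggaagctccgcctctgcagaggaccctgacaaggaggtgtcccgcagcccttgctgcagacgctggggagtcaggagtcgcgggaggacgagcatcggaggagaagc

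The first of both Meg3 windows in RefSeq holds 1 TGACGTCA and, overlapping on the opposite strands, 2 matches of TATAAA. The Peg3 window holds 1 TGACGTCA and no TATAAA, and the Dio3 window holds 1 TATAAA and no TGACGTCA. The Dlk1 window holds neither. Over all 32851 windows of this length, 1.79% hold TGACGTCA and 13.6% hold TATAAA on either strand. The genes with TGACGTCA thus include one that was higher (Gtl2) and one that was lower (Peg3) in hcatTg cells. TGACNNNGC, the core of the antioxidant response element, was in none of the 7 windows that RefSeq gives for 5 of the genes, against 12.4% of all windows, searched on both strands. These are matches of letters only. The 300-base windows held 9 CG dinucleotides for Dlk1, 25 for Dio3 and 13 for Peg3. The 2 Meg3 windows held 13 and 1, and the 2 Grb10 windows 45 and 9. Over all windows the median was 7 and the quartiles were 3 and 20. H19 and Peg10 had no window in the table.

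In hcatTg cells Dlk1 was 14.5-fold higher, Gtl2 4.04-fold higher and H19 2.18-fold higher than in wild type cells. Peg3 was 12.0-fold lower, Dio3 8.06-fold lower, Peg10 5.49-fold lower and Grb10 2.94-fold lower, so genes of the same chromosome 12 region stood on opposite sides. The values of the genotypes did not overlap for any of the 7 genes. Over all clusters, 20.3% did not overlap. All 7 genes differed at least 2-fold in the same direction in both array pairs, 3 higher and 4 lower in hcatTg, as did 1.56% of all clusters (0.377% higher and 1.18% lower). At least 4-fold in both pairs were 4 of the 7 (Dlk1, Dio3, Peg3 and Peg10) and 0.253% of all clusters, and at least 1.5-fold were all 7 and 4.75%. The authors' selection used this contrast, so nothing is read from these counts.

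**Figure D1:**
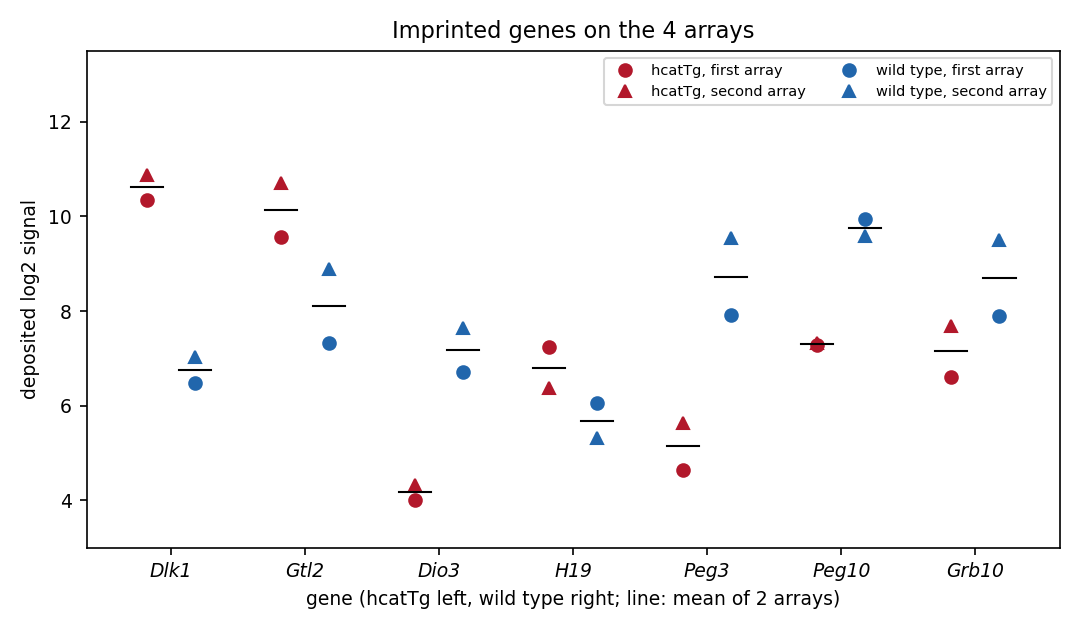
Deposited log2 signal (y axis) of the 7 imprinted genes (x axis) on each array, with hcatTg in red on the left and wild type in blue on the right; circles are first arrays, triangles second arrays, and lines the mean of 2 arrays. Dlk1, Gtl2 and H19 lie higher in hcatTg and Dio3, Peg3, Peg10 and Grb10 lower, with no overlap between the genotypes.

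Dlk1 encodes a membrane protein with EGF-like repeats, related to the Notch ligands and known as an inhibitor of fat cell differentiation. Its log2 signal was 10.34 and 10.88 on the first and second hcatTg arrays, against 6.48 and 7.03 on the wild type arrays. Both hcatTg arrays were high and the wild type arrays lay close above their array medians, by 0.73 and 1.01. The difference was 3.87 in the first pair and 3.85 in the second, a mean of 3.86 ± 0.0116 (SD of the pair differences, n = 2 pairs). With each array centred on its median, the pairs lay further apart, at 4.22 and 3.87. Among the 93 probe sets listed as higher in the authors' deposited table, Dlk1 ranked 8 by average fold, and that table gives folds of 13.4 at the first and 14.4 at the second time.

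Gtl2 is a long noncoding RNA and the first of the maternally expressed transcripts of the region. Its log2 signal was 9.56 and 10.70 on the hcatTg arrays, against 7.34 and 8.90 on the wild type arrays. The first hcatTg array lay only 0.66 above the second wild type array, while within pairs the difference was 2.22 and 1.81 (mean 2.01 ± 0.294, SD, n = 2 pairs). Without wild type replicate 1 the mean difference was 1.23, so that array moved its size by over 1.5 times.

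Dio3 encodes the type 3 deiodinase, a selenoenzyme that inactivates thyroid hormone. Its log2 signal was 4.01 and 4.33 on the hcatTg arrays, against 6.72 and 7.64 on the wild type arrays. Both hcatTg values lay below their array medians, by 1.39 and 1.68 log2 units, and both wild type values above theirs, by 0.98 and 1.61. Whether these low values exceed the background of the array was not analysed, and the size of the difference holds for the deposited signals alone. The difference was -2.71 in the first pair and -3.31 in the second (mean -3.01 ± 0.425, SD, n = 2 pairs).

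Along the chromosome, the log2 differences of the region were thus 3.86 for Dlk1 at one end, 2.01 for Gtl2 beside it and -3.01 for Dio3 at the other end. Dlk1 and Gtl2, known for expression from opposite parental copies, differed in the same direction. Dlk1 and Dio3, both known for expression from the paternal copy, differed in opposite directions. Rtl1, Rian and Mirg are not named in the authors' table and were not analysed here.

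H19, a maternally expressed long noncoding RNA that is also the precursor of a microRNA, showed the smallest difference of the 7 genes. Its log2 signal was 7.23 and 6.38 on the hcatTg arrays, against 6.05 and 5.32 on the wild type arrays. The gap between the second hcatTg array and the first wild type array was 0.33, and the second wild type array lay 0.70 below its array median. Within pairs the difference was 1.18 and 1.07 (mean 1.12 ± 0.0818, SD, n = 2 pairs). Without hcatTg replicate 1 the mean difference was 0.70 and without wild type replicate 2 it was 0.76, both under 2-fold, and after quantile normalization the second-pair difference was 0.97. In the authors' deposited table H19 ranked 91 of the 93 higher probe sets, with a fold of 2.39 at the first and 2.09 at the second time, so it lies just inside the 2-fold limit.

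Peg3, which encodes a large zinc finger protein, had a log2 signal of 4.65 and 5.64 on the hcatTg arrays, against 7.91 and 9.54 on the wild type arrays. The hcatTg values lay below their array medians by 0.75 and 0.36, and the wild type values above theirs by 2.17 and 3.52. The difference was -3.26 in the first pair and -3.90 in the second (mean -3.58 ± 0.451, SD, n = 2 pairs). It ranked 15 of the 305 lower probe sets by average fold in the authors' deposited table, where Dio3 ranked 24.

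Peg10, a gene derived from a retrotransposon and needed for the placenta in mice, had a log2 signal of 7.29 and 7.32 on the hcatTg arrays, against 9.94 and 9.59 on the wild type arrays. All 4 values lay above their array medians, by 1.32 to 4.19. The arrays of each genotype lay close together, and the difference was -2.64 and -2.27 in the first and second pair (mean -2.46 ± 0.263, SD, n = 2 pairs).

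Grb10 encodes an adaptor that binds and inhibits the insulin and IGF-1 receptors. Its log2 signal was 6.61 and 7.69 on the hcatTg arrays, against 7.90 and 9.51 on the wild type arrays. The second hcatTg array lay only 0.21 below the first wild type array, while within pairs the difference was -1.29 and -1.82 (mean -1.55 ± 0.375, SD, n = 2 pairs). Its mean difference was -0.75 without wild type replicate 2, -1.01 without hcatTg replicate 1 and -2.36 without wild type replicate 1. With each array centred on its median the first-pair difference was -0.94, just under 2-fold. The first-pair difference was 0.31 smaller in size in the value table than the log2 ratio of -1.60 in the authors' deposited table.

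**Figure D2:**
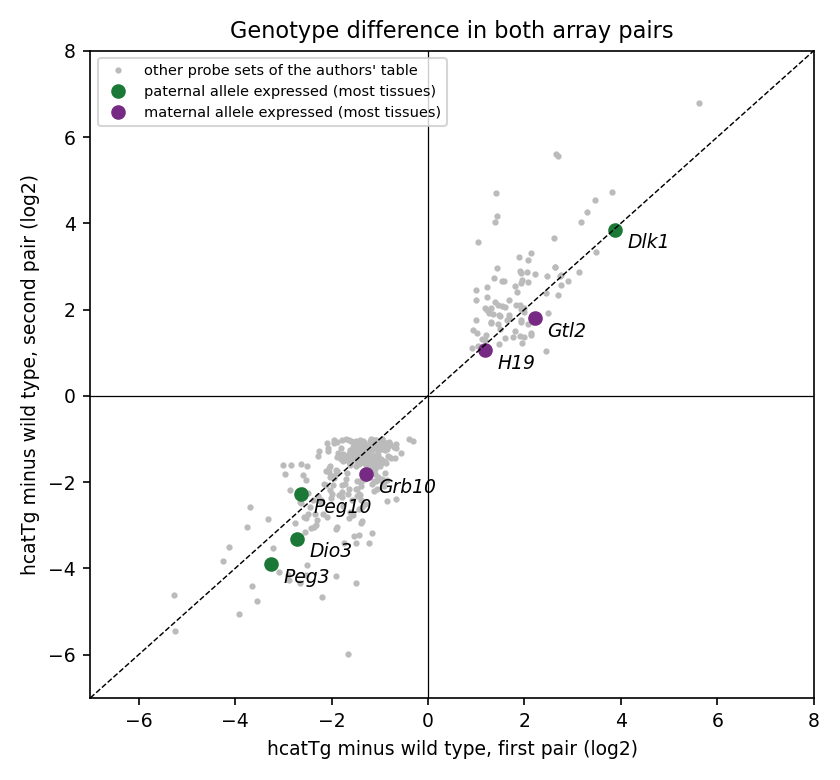
Difference of log2 signal, hcatTg minus wild type, in the first array pair (x axis) and the second (y axis) for the 398 probe sets of the authors' table; the 7 imprinted genes are coloured by the copy known to be expressed in most tissues, and the dashed line marks equal differences. On these deposited signals Dlk1 and H19 lie on or next to the line, and genes of either parental origin lie on both sides of 0.

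Split by the parental copy known to be expressed, the maternally expressed genes were 2 higher (Gtl2, H19) and 1 lower (Grb10) in hcatTg cells, with a median log2 difference of 1.12 and a range of -1.55 to 2.01. The paternally expressed genes were 1 higher (Dlk1) and 3 lower (Dio3, Peg3, Peg10), with a median of -2.73 and a range of -3.58 to 3.86. Each set thus held differences of both signs. Over the authors' table as a whole 93 probe sets were higher and 305 lower, with a median of -1.36, and over all clusters the median was -0.18. No test was made of sets this small and chosen on this contrast.

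Between the first and second pair, the genotype difference of the 7 genes changed by a median of 0.42 log2 units in size, against 0.39 for the whole table and 0.42 for all clusters. These are deposited values, on which the median difference of all clusters was itself -0.37 in the first pair and 0.01 in the second. On them the genotype difference changed least for Dlk1, by -0.02, and most for Peg3, by -0.64. With each array centred on its median it changed least for Peg10, from -2.30 to -2.25, while Dlk1 went from 4.22 to 3.87. The median genotype difference of the 7 genes was 2.46 in size.

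The second arrays were also set against the first, with the genotype as a term in limma. The authors' selection did not use this contrast, so it was tested over all 35557 clusters. It called 3 of the 7 genes, all higher in the second pair: Gtl2 by 1.35 log2 units (limma adjusted p = 0.000403), Grb10 by 1.35 (limma adjusted p = 0.000431) and Peg3 by 1.31 (limma adjusted p = 0.000658), each with SE 0.327. Both genotypes showed the direction for each of the 3. The share of all clusters called was 27.6%, nearly all of them higher in the second pair (27.2%), and 3 of 7 is to be read against that share. The share depended on the signal level. Fitted to the clusters at or above the median level alone, which hold 6 of the 7 genes, limma called 62.5% of clusters and 5 of those 6 genes. The array medians were 5.40 and 6.00 for hcatTg replicates 1 and 2 and 5.75 and 6.02 for wild type replicates 1 and 2. After median centring, where 16.8% of all clusters were called, limma called H19 (adjusted p = 0.0344) and did not call Gtl2 (0.91 higher, adjusted p = 0.0604), Grb10 (0.91 higher, adjusted p = 0.0698) or Peg3 (0.87 higher, adjusted p = 0.0859). In an alternative added after seeing the data, with that centring but without the 6636 lowest-numbered clusters, it called Gtl2, Grb10 and Peg3 (limma adjusted p = 0.00258, 0.0035 and 0.0058), as well as H19 (adjusted p = 0.000214) and Peg10 (adjusted p = 0.00831), with 46.6% of the clusters called. A fit with 4 arrays leaves 1 residual degree of freedom per cluster, which is how far the 2 genotypes disagree on the pair difference. On the deposited values all clusters shared a single variance, so the SE there is not a spread of these genes themselves.

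H19 differed in the direction opposite to that of most clusters. Its second array minus its first was -0.85 log2 units in hcatTg cells and -0.73 in wild type cells, while the median of all clusters was 0.60 higher in hcatTg and 0.21 higher in wild type. The mean difference was -0.79 ± 0.327 (SE, limma adjusted p = 0.0555), and -1.23 ± 0.182 after median centring. Over all clusters 7.87% were lower on the second array in both genotypes. Dlk1 differed between pairs by 0.53 in hcatTg and 0.55 in wild type (limma adjusted p = 0.229), Dio3 by 0.31 and 0.91 (adjusted p = 0.159) and Peg10 by 0.03 and -0.34 (adjusted p = 0.795).

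**Figure D3:**
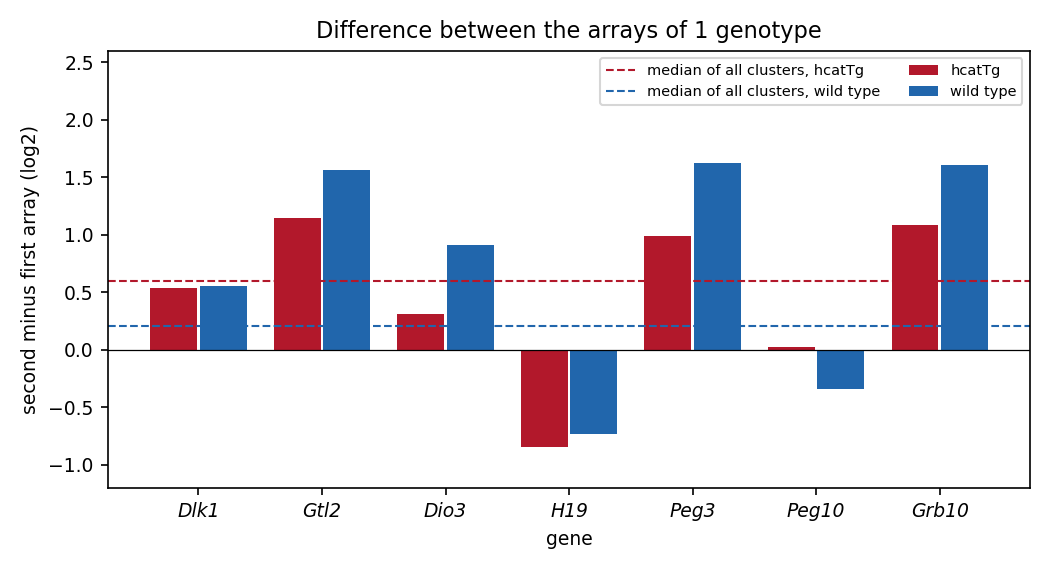
Second minus first array in log2 units (y axis) for the 7 imprinted genes (x axis), with hcatTg in red and wild type in blue; dashed lines are the medians over all clusters, 0.60 in hcatTg and 0.21 in wild type. H19 is lower on the second array in both genotypes, and Gtl2, Peg3 and Grb10 lie above the medians in both.

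Of a wider list of 62 imprinted genes, 31 paternally and 31 maternally expressed, the authors' table names 8, the 7 genes above and Sfmbt2. The table holds 1.12% of all clusters, and nothing is known here of listed genes outside it. Sfmbt2, a Polycomb-type gene known as paternally expressed in extraembryonic tissue, had a log2 signal of 5.29 and 5.54 on the hcatTg arrays, against 6.12 and 6.64 on the wild type arrays. Its difference was -0.84 in the first pair and -1.10 in the second. None of the 13 genes on the list for DNA methylation and imprint maintenance, such as Dnmt1, is named in the table, and their levels were not analysed here.

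Genes of the pathways in which the 7 genes act were also looked up. Of 20 Notch genes, 2 are in the authors' table and both were lower in hcatTg cells, while Dlk1 was higher. That table holds 1.12% of all clusters, and 305 of its 398 probe sets were lower in hcatTg cells. The other Notch genes were not analysed, so nothing is read from this count or these directions. The ligand gene Jag1 lay at 5.92 and 7.04 in hcatTg, against 7.71 and 9.11 in wild type, and the receptor gene Notch1 at 5.59 and 6.24 in hcatTg, against 6.76 and 7.74 in wild type.

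The table names 3 of 18 insulin-like growth factor genes, and hcatTg cells had 2 of them higher and 1 lower. Igfbp6, an IGF binding protein gene, lay at 9.47 and 11.78 in hcatTg, against 5.65 and 7.05 in wild type. Igfbp4, of the same family, lay at 9.87 and 11.27 in hcatTg, against 8.43 and 9.60 in wild type. Igf2bp3, which encodes a protein that binds Igf2 mRNA, lay at 5.02 and 5.70 in hcatTg, against 6.39 and 8.26 in wild type. The genotypes did not overlap for these genes, as for 20.3% of all clusters, and nothing is read from it because the table was selected on this contrast. Among the genes named here, Grb10 and Igf2bp3 were lower and H19, Igfbp4 and Igfbp6 higher. The other listed genes were not analysed, and the table holds 1.12% of all clusters.

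**Figure D4:**
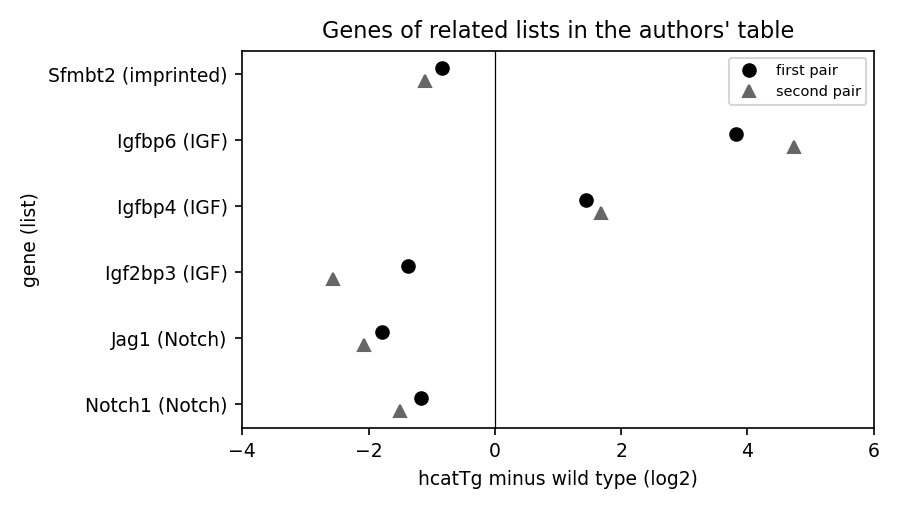
Difference of log2 signal, hcatTg minus wild type (x axis), in the first pair (circles) and second pair (triangles) for 6 further genes of the imprinted, IGF and Notch lists that the authors' table names (y axis). Igfbp6 and Igfbp4 lie above 0 in both pairs, and the other genes below 0.

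The 10 protein-coding genes on each side in RefSeq order were taken as neighbours, and 0 to 3 of these 20 per gene were in the authors' table. That table holds 1.12% of all clusters, and 305 of its 398 probe sets were lower in hcatTg cells. Neighbours outside it were not analysed, so nothing is read from these counts or directions. Peg10 had 3, all lower in hcatTg cells as was Peg10: Pdk4, a kinase gene that inhibits pyruvate dehydrogenase, by a mean log2 difference of -2.85, the mitochondrial carrier gene Slc25a13 by -1.26 and the G protein subunit gene Gng11 by -1.16. The Gng11 values of both genotypes and the hcatTg values of Pdk4 lay below their array medians. Grb10 had its neighbour Cobl, an actin nucleator gene, which was also lower (-1.16). H19 had Lsp1, a leukocyte actin-binding protein gene, which differed in the opposite direction (-1.22). Peg3 had 0, and the genes of the chromosome 12 region had each other only.

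By the root mean square distance of the 4 centred array values, the probe sets of the authors' table most like Dlk1 were Npy1r (0.314 log2 units), Mmp2 (0.517) and Thbs2 (0.526). Those most like Gtl2 were Sdpr (now Cavin2, 0.107), Efemp1 (0.159) and Lama2 (0.222). For H19 even the nearest, Plac9, lay at 0.410, followed by Plau (0.466) and Sh3tc1 (0.500). Those most like Dio3 included Lifr (0.0885) and Mkx (0.173). Peg3 was nearest to Adamts9 (0.143), Tcf21 (0.223) and Klhl6 (0.265). Peg10 was nearest to Sema3e (0.185), Has2 (0.229) and Gata4 (0.237), and Grb10 to Foxf2 (0.0842), Rnf150 (0.0951) and Pde1a (0.102). Among the 7 genes themselves, Dio3 and Peg3 were nearest to each other (0.449), Dlk1 and Gtl2 lay 1.01 apart, and Dlk1 and Peg3 were farthest apart (3.74). Distances over 4 arrays are a description.

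Sex-linked genes and some markers of other cell types moved along with the genotype, and their part in these differences was not tested. All 5 sex-linked genes of a list chosen with earlier results of these data known separated the genotypes, as did 20.3% of all clusters. All 5 are in the authors' table, which was selected on this contrast. Xist was higher in hcatTg by 6.21 log2 units, at 10.33 and 11.45, against 4.71 and 4.66 in wild type. The 4 Y-linked genes were lower in hcatTg, by -2.47 to -5.34. The sex of the cells, as far as these genes mark it, cannot be told apart from the genotype on these 4 arrays. The cell type markers given are those named in the authors' table, which was selected on this contrast and has 305 of its 398 probe sets lower in hcatTg. Markers outside it were not analysed, so nothing is read from the separation of those inside. The 4 of 9 smooth muscle markers in the table averaged 5.09 and 6.24 on the hcatTg arrays, against 6.66 and 8.87 on the wild type arrays. The 1 fibroblast marker of 8 was lower, at 6.69 and 7.74 in hcatTg, against 8.24 and 10.50 in wild type. Of the 4 of 6 mesothelial markers, 2 were higher in hcatTg, Upk1b by 2.76 and Msln by 2.51, and 2 lower, Upk3b (-2.68) and Wt1 (-1.35). The 3 of 7 leukocyte markers averaged 5.50 and 6.19 in hcatTg, against 5.94 and 6.93 in wild type, with Cd53 higher by 2.46 and Lyzs (-1.88) and Lcp1 (-2.33) lower. Of 14 endothelial markers the table names only Kdr and Eng. Kdr was higher in hcatTg by 2.31, at 6.68 and 8.24, against 5.63 and 4.67 in wild type. Both wild type Kdr values lay below their array medians, by 0.12 and 1.35. Eng differed by -1.31, at 8.40 and 8.71 in hcatTg, against 9.57 and 10.15 in wild type, all above their array medians. The labelled cell type could be looked at through these 2 only. In RNA of a whole culture, fewer cells of a type and less RNA per cell cannot be told apart.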

How the data were processed

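Per the labels, 2 hcatTg and 2 wild type RNA samples were each hybridised to 1 array, and grouping followed the genotype label. The value table holds log2 signals deposited by the authors for 35557 clusters. The submitters' processing notes name Affymetrix Expression Console; settings and build were not stated in any source read. Array medians ranged from 5.40 to 6.02, and the arrays were used as deposited, with centring and quantile normalization as alternatives. The authors' deposited table gives log2 RMA signals for the first pair, a linear ratio and signed folds for both pairs, per the file headers, where a negative fold is wild type over hcatTg. Names came from that table; 385 matched RefSeq (GRCm38.p6) by accession, 10 by symbol and 3 by synonym. Arrays have no read depth, and their number limits the precision.

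The genes and lists were chosen with earlier results of these data known. Genotype differences were described per array and per pair, since the genes were selected on them. The second pair was tested against the first with limma 3.58.1 in R 4.3.3 (lmFit, eBayes, genotype as a term, Benjamini-Hochberg, adjusted p below 0.05), after the fit was tested on simulated data. Named genes were the 7 genes, all genes of the lists in the authors' table and, per gene, the 3 probe sets nearest in pattern; some items are not reported here. The RefSeq neighbours and single sex-linked, endothelial and other markers were named in addition, after their values were seen. Pairing followed the table's first and second time. Protein sequences were not used here.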

Additional observations from a re-analysis of the deposited data

Results flagged for a closer look

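On the deposited values, Peg10 moved in opposite directions between the arrays of the genotypes. The second array differed from the first by 0.0276 log2 units in hcatTg cells and by -0.344 in wild type cells. With 1 array per genotype and pair this difference was not tested. Over all clusters, 31.8% had opposite signs in the genotypes on the deposited values. Measured from the array medians, Peg10 was lower on the second array in both genotypes. It lay above them by 1.89 and 1.32 on the first and second hcatTg arrays, and by 4.19 and 3.57 on the wild type arrays.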

How the results depend on the processing

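All 7 genes kept the sign of their genotype difference under each of the 7 alternatives tried (median centring, quantile normalization, the authors' deposited table and leaving out each array in turn), and of the 49 values 48 moved by less than the spread between arrays. The exception was Peg10 with median centring, at -2.27. Centring moved the difference of every gene by the same amount, and Peg10 had the smallest spread (0.172). With 2 arrays per genotype, leaving out 1 cannot move a difference past the spread between arrays. Nor can it reverse the sign where the genotypes do not overlap. By these 2 measures the values without 1 array thus say nothing about stability. With the authors' table the kept sign says nothing about stability either. Its folds chose the genes, and its second-pair differences equal those of the value table at the digits given here. Leaving out 1 array gave 3.59 to 4.14 for Dlk1, 1.23 to 2.79 for Gtl2, 0.70 to 1.55 for H19, -2.36 to -0.75 for Grb10, -2.63 to -2.29 for Peg10, -3.47 to -2.55 for Dio3 and -4.39 to -2.77 for Peg3. The count of genes at least 2-fold apart in both pairs was 7 with the authors' table, a 1.5-fold limit or no replicate block (group means), and 6 with centring (without Grb10) or quantile normalization (without H19). It was 4 at 4-fold, 4 with the pairs crossed, and 5 to 7 without 1 array. The counts with the authors' table, the 1.5-fold limit and the group means were fixed in advance and say nothing about stability. That table lists only probe sets at least 2-fold apart, and all 7 genes passed 2-fold in both pairs on the deposited values. The limma count for the second against the first pair, 3 of 7 with 27.6% of all clusters called, was unstable. It was 0 with no replicate block and no genotype block (0 of the 7 at an unadjusted p below 0.05; 15.9% of clusters called), 1 after centring on the medians (16.8%), 0 by limma on quantile-normalized values (3 genes at an unadjusted p below 0.05; 0 clusters called) and 5 of the 6 genes at or above the median level (62.5%). Leaving out 1 array could be fitted only without the genotype term, which mixes the genotype difference into the contrast; these counts, 0 to 3 by limma, say nothing about stability. They were 0 without hcatTg replicate 1 (0 at an unadjusted p below 0.05; 0.622% of clusters called) and without wild type replicate 1 (0; 25.5%), 3 without hcatTg replicate 2 (5.45%) and 2 without wild type replicate 2 (3.09%). Leaving out the 6636 lowest-numbered clusters, added after seeing the data, gave 4 on the deposited values (33.2% of clusters called), 5 with median centring (46.6%) and 3 with quantile normalization (31.1%). The cause was not tested.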
